A study of Homo sapiens with 24 samples.

Results

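The effect of a BOP1 siRNA on the transcriptome was measured in A549, a cell line from a human lung adenocarcinoma, after 12 h in interferon beta (IFN). The comparison set 3 libraries of cells given a pool of siRNAs against BOP1 (siBOP1) against 3 libraries of cells given a control siRNA against firefly luciferase, an insect gene (siFLuc). Both groups were transfected for 48 h and then received IFN at 1000 U/mL for 12 h, so the IFN treatment is shared and its own effect is not measured here. Values were TPM, a transcript abundance corrected for length and scaled to a fixed total in each library, from poly(A)-selected RNA. Of 60609 gene rows, 14370 reached at least 1 TPM in at least 3 of the 6 libraries and were tested. At the edge of that rule, 477 genes reached 1 TPM in exactly 3 libraries and 609 in exactly 2. The series holds 24 libraries, and the siRNA was also compared in mock-treated cells and at 8 h with other libraries. The siRNAs were a pool and the cells were 1 line. The labels do not say whether the replicates were separate cultures, so p-values measure only the spread between these libraries, which may be technical.

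BOP1 works with PES1 and WDR12 in the PeBoW complex, which is needed to process the precursor of the large subunit's ribosomal RNA in the nucleolus and to mature that subunit. Loss of such assembly factors is known to free ribosomal proteins that bind MDM2, which can stabilise p53. Type I interferon acts through its receptor, the kinases JAK1 and TYK2 and the factor ISGF3, which includes IRF9, to induce antiviral genes. An siRNA guides an Argonaute protein to its target RNA, and its first bases, the seed, can also pair with short sites in the 3′ untranslated regions (UTRs) of other transcripts.

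The 6 libraries held between 14185 and 14380 genes at 1 TPM or more, 12.3% to 14.1% of TPM in their 10 highest genes and 11.5% to 14.1% in mitochondrial genes. Sequencing depth is unknown, because TPM keeps none. The columns of each group are numbered 1, 2 and 4, whereas the labels count replicates up to 3, so the libraries numbered 4 enter their group without a replicate number. Over all groups at 12 h, mock-treated ones included, those numbered 4 differed from those numbered 1 and 2 in 6181 of 14370 genes (limma, adjusted p under 0.05). A control library stood apart. Over genes that the siRNA changed in the other comparisons, which use none of these 6 libraries, the siFLuc library numbered 2 lay 31.3% to 35.1% of the way from the mean of the other 2 controls to the siBOP1 mean. The controls of the other 3 comparisons lay between -15.3% and 16% of that way. Counts of called genes are therefore also given without that library and for the libraries numbered 1 and 2 alone, and other values where the call of a named gene changed or a list's median moved by over 1.5 times.

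**Figure D1:**
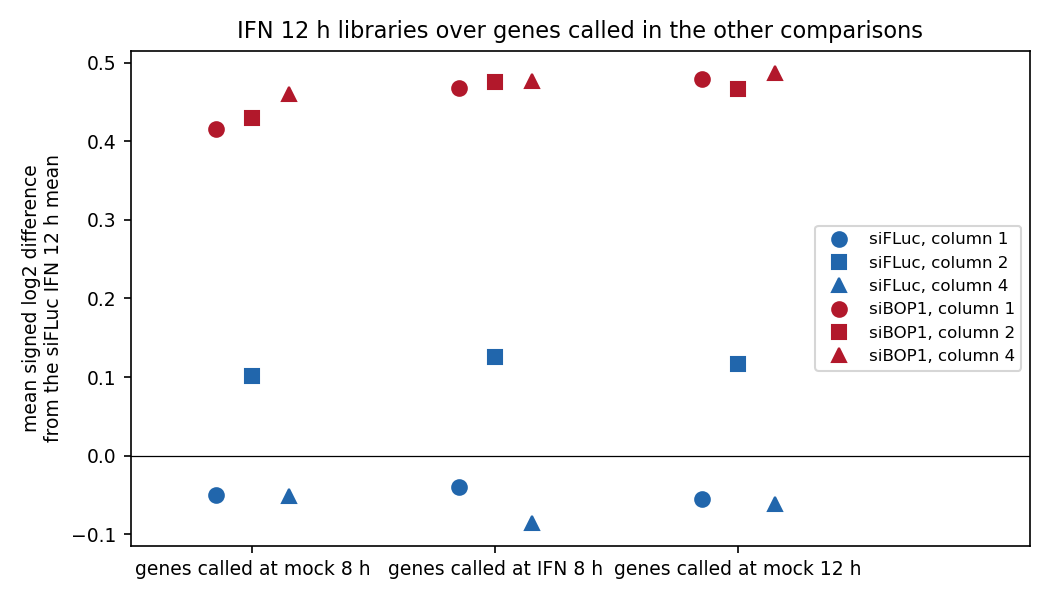
Mean signed log2 difference of each IFN 12 h library from the siFLuc mean, over genes called in each of the 3 other siRNA comparisons; red points are siBOP1 and blue points siFLuc libraries, and the shape is the column number. The siFLuc library numbered 2 sits above the other 2 controls with each gene set, and all 3 siBOP1 libraries sit above it.

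With siBOP1, 74 genes were higher and 47 lower than with siFLuc, 0.515% and 0.327% of the genes tested (limma on log2(TPM + 1), Benjamini-Hochberg adjusted p under 0.05). The largest fall was BOP1 itself, followed by CHCHD5, CDCA7L and UNG. The rises were led by TM4SF20, SLC22A18AS, TTC39A, HINT1 and FGB, a fibrinogen chain, among genes with at least 5 TPM in the higher group. Most changes were small. On the log2(TPM + 1) scale, the called rises ran from 0.28 to 1.30 with a median of 0.64, and the called falls from -0.37 to -1.92 with a median of -0.62. Only 11 rises and 9 falls reached 2-fold. Over all genes tested the median was -0.02, with the 5th and 95th percentiles at -0.36 and 0.39. All 121 called genes separated the 3 siBOP1 from the 3 siFLuc libraries without overlap, as did 13.5% of all genes tested. Protein-coding genes made up 73 of the rises and 42 of the falls.

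The count depends on how the spread was estimated. In the fit blocked by column number, 366 genes were higher and 274 lower. Without the siFLuc library numbered 2, the counts were 81 and 61, and with the libraries numbered 1 and 2 alone 58 and 56 (0.404% and 0.39% of the genes tested). Leaving out the siFLuc library numbered 1 left 15 and 16, and leaving out that numbered 4 left 25 and 20. Without the siBOP1 libraries numbered 1, 2 or 4 in turn, 28, 33 and 33 genes were higher and 24, 27 and 41 lower. With the libraries numbered 1 and 2 alone, some genes described below lost their calls. Among them were RRAD (adjusted p = 0.0529), CYP4F12 (0.0569), DPM3 (0.0607), C11orf86 (0.0785) and AMBP (0.164). EPHX1 (0.0705), UBE2L6 (0.053), EPSTI1 (0.16), CEBPA (0.0743) and FOXA3 (0.0918) lost theirs too. Of the 121 genes, 30 were called with each of the 6 libraries left out in turn, 14 of them higher and 16 lower.

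**Figure D2:**
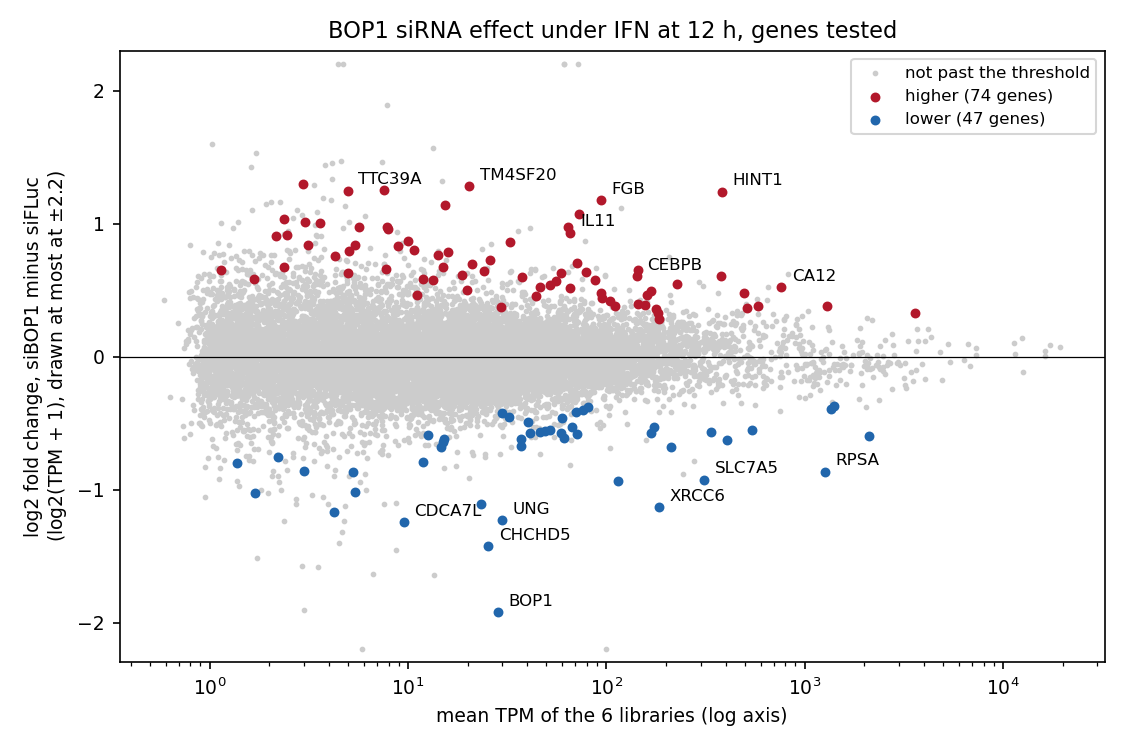
Log2 fold change (siBOP1 minus siFLuc) against the mean TPM of the 6 libraries on a log axis, for the 14370 genes tested; red genes were higher, blue genes lower, and grey genes did not pass the threshold. BOP1 lies lowest among the called genes at -1.92, and most called genes lie within 1 log2 unit of 0.

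BOP1 (ENSG00000261236) was measured at 10.7, 10.0 and 12.5 TPM in the siBOP1 libraries numbered 1, 2 and 4, and at 44.0, 32.4 and 61.6 TPM in the siFLuc libraries. The lowest control was that numbered 2, and the groups did not overlap. The means were 11.1 ± 1.28 and 46.0 ± 14.7 TPM (SD, n = 3 each), so that 24.1% of the control level remained. The log2 fold change was -1.92 (SE 0.18, limma adjusted p = 1.14e-05), and -2.14 without the siFLuc library numbered 2. A two-sided exact permutation test on TPM gave p = 0.1, the smallest that 3 against 3 libraries allow. The partners of BOP1 were not called. PES1, which holds the complex together with BOP1, stood at 67.5 ± 4.33 TPM with siBOP1 and 72.5 ± 2.97 TPM with siFLuc (SD, n = 3 each; log2 fold change -0.10, SE 0.09, limma adjusted p = 0.85). WDR12 stood at 31.4 ± 6.68 and 31.6 ± 2.05 TPM (log2 fold change -0.03, SE 0.16, limma adjusted p = 0.983).

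Among the other lower genes, the largest fall was that of CHCHD5, a twin-cysteine protein of the mitochondrial intermembrane space, on chromosome 2 (112584240 to 112589275, GRCh38, GENCODE 29). It was measured at 12.9, 13.6 and 13.3 TPM with siBOP1 and at 37.7, 29.7 and 46.0 TPM with siFLuc. Its log2 fold change was -1.43 (SE 0.15, limma adjusted p = 3.08e-05), and its siBOP1 libraries lay closer together than its controls. None of the 26 other tested members of a list of such mitochondrial proteins was called in either direction (median log2 fold change of all 27, 0.06).

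XRCC6 encodes Ku70, which with Ku80 binds broken DNA ends in non-homologous end joining. It stood at 130, 100 and 116 TPM with siBOP1 and at 276, 207 and 282 TPM with siFLuc, with no overlap (log2 fold change -1.13, SE 0.12, limma adjusted p = 2.17e-05). It was the 1 called gene among 23 tested genes of end joining (median -0.02), where 0.842% of all genes were called. XRCC6P2, a processed pseudogene of XRCC6 on chromosome X, was also lower (log2 fold change -0.86), and how reads shared by the pair were divided is not given in the sources used here.

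UNG, the uracil DNA glycosylase of base excision repair, stood at 15.9, 12.96 and 24.0 TPM with siBOP1 and at 45.3, 31.0 and 49.9 TPM with siFLuc (log2 fold change -1.23, SE 0.20, limma adjusted p = 0.00289). CDCA7L, a MYC-interacting nuclear protein, stood at 4.42, 5.13 and 6.20 TPM and at 15.3, 10.9 and 15.3 TPM (log2 fold change -1.24, SE 0.19, limma adjusted p = 0.00169). In both genes the control numbered 2 was the lowest control and still above every siBOP1 library. These were the 2 called genes of 58 tested genes of DNA replication and S phase, where 0.327% of all genes were called lower. In the fit blocked by column number 8 of the 58 were lower, where 1.91% of all genes were.

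DPM3, the small subunit that anchors dolichol phosphate mannose synthase in the membrane of the endoplasmic reticulum (ER), stood at 20.1, 12.2 and 11.5 TPM with siBOP1 and at 38.2, 28.9 and 28.8 TPM with siFLuc (log2 fold change -1.11, SE 0.20, limma adjusted p = 0.00792). SLC7A5, the large chain of the leucine transporter LAT1, stood at 175, 221 and 248 TPM and at 424, 326 and 477 TPM (log2 fold change -0.92, SE 0.17, limma adjusted p = 0.0102). The groups did not overlap in either gene. Both calls were lost when the siFLuc library numbered 1 was left out (adjusted p = 0.0813 for DPM3 and 0.0805 for SLC7A5). DPM3 also lost its call without the siBOP1 library numbered 2 (0.0542) or 4 (0.0514), and SLC7A5 without the siBOP1 library numbered 1 (0.0779) or the siFLuc library numbered 4 (0.0848).

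Low genes among the largest falls were PCDHGC3 (2.22 ± 0.33 against 6.24 ± 0.92 TPM), a protocadherin of the gamma cluster, whose genes share their last exons, and GIMAP2 (3.22 ± 0.71 against 7.59 ± 1.88 TPM), a GTPase best known in lymphocytes. BCL9, a coactivator that binds β-catenin, stood at 3.45 ± 0.68 against 7.08 ± 0.44 TPM (SD, n = 3 each, siBOP1 then siFLuc for the 3 genes). Their log2 fold changes were -1.17, -1.02 and -0.87 (limma adjusted p = 0.000977, 0.0099 and 0.00289). GIMAP2 lost its call without the siFLuc library numbered 1 (adjusted p = 0.0933), the siBOP1 library numbered 4 (0.0549) or the siBOP1 library numbered 1 (0.0502).

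RPSA, the ribosomal protein uS2 of the small subunit and laminin receptor precursor, was the most abundant gene among the 12 largest falls. It stood at 935, 923 and 828 TPM with siBOP1 and at 1772, 1483 and 1646 TPM with siFLuc (log2 fold change -0.87, SE 0.09, limma adjusted p = 2.17e-05). A processed pseudogene of RPSA on chromosome 19 (ENSG00000225178.5, named RPSAP58 in GENCODE 29) fell from 150 ± 13.1 to 78.2 ± 8.45 TPM (SD, n = 3 each; log2 fold change -0.93, limma adjusted p = 3.24e-05). Reads of the pair may have been shared, so the values of both are uncertain to that extent. The same holds for RPLP0 with RPLP0P6 and for YWHAZ with YWHAZP10, pairs in which both members were lower.

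A 7-base word occurred in most 3′ UTRs of the lower genes, and its sites are shown for that reason. It was taken from other libraries: of all 7-base words, GCCAGTT most exceeded its overall share in the annotated 3′ UTRs of genes lower in mock-treated cells at 8 h. The libraries differ but the genes overlap: 37 of the 47 genes lower under IFN at 12 h were also called lower there. The share below therefore largely counts genes that chose the word, and is no independent result. The word had also appeared in earlier results of these data, so its presence here is a description. Of the genes lower under IFN at 12 h, 42 had an annotated 3′ UTR, and 29 of these (69.0%) held the word on the transcript's strand. It was held by 2 of 73 higher genes (2.74%) and by 1293 of all 11945 tested genes with a 3′ UTR (10.8%). Its reverse complement, AACTGGC, was held by 2.38% of the lower genes and 8.49% of all. The median 3′ UTR had 885 bases in lower genes, 751 in higher genes and 1092 overall. The sites below are from GENCODE 29 transcripts on GRCh38, which may not be the annotation of the deposited values. Each shows 12 bases before and 8 after the word, 5′ to 3′ on the transcript's strand, with the word in capitals.

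XRCC6, chr22:41663866-41663892, plus strand: gccttgtcctcaGCCAGTTaaaatgtg
UNG, chr12:109110004-109110030, plus strand: gttaacgtatttGCCAGTTacgaagtt
UNG, chr12:109110410-109110436, plus strand: atgccagtctctGCCAGTTccactgcc
CDCA7L, chr7:21902060-21902086, minus strand: ttaaaaatatctGCCAGTTattaaaaa
DPM3, chr1:155139893-155139919, minus strand: tcccattaaagaGCCAGTTtattttct
GIMAP2, chr7:150693527-150693553, plus strand: caaatatctaaaGCCAGTTttatgttc
SLC7A5, chr16:87832916-87832942, minus strand: gcatgcgcagagGCCAGTTaaagtaga
RPLP0, chr12:120196736-120196762, minus strand: gcaaccaacttaGCCAGTTttatttgc
EIF4G2, chr11:10797503-10797529, minus strand: accttctttgctGCCAGTTatcatagg
STIP1, chr11:64204512-64204538, plus strand: ccaataaaacaaGCCAGTTgggcgtgg
DDX18, chr2:117831897-117831923, plus strand: ttttgctgttgtGCCAGTTaatcatag
UBE2L6, chr11:57552068-57552094, minus strand: ttgcagttacagGCCAGTTctccagct

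The sites lay at different depths in their UTRs. The word began at base 55 of the 71-base UTR of DPM3, at base 23 of 74 in RPLP0 and at base 63 of 224 in XRCC6, but at base 1185 of 1655 in DDX18. Of the genes shown, UNG and UBE2L6 held 2 copies, and 1 copy of UBE2L6 is printed. The base after the word was A in 36.4% of the 33 sites in lower genes and in 19.2% of the 1488 sites in all tested genes that have a base there. Other neighbours differed too: the base before the word was G in 9.09% of the 33 sites and in 22.9% of 1489. These shares were not tested, and the sites in lower genes come largely from genes that chose the word. The 13 lower genes with a 3′ UTR and no copy of the word included BOP1, CHCHD5, PCDHGC3, BCL9, RPSA and EPSTI1, and the 3 keratins KRT7, KRT81 and KRT86. No match says only that these letters are not in that UTR.

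Most genes with the word were not called. Of 1131 genes with 1 copy, 2.21% were called lower, against 0.122% of the 10652 genes without a copy and 2.47% of the 162 genes with 2 or more. The median log2 fold change was -0.08 with 1 copy, -0.08 with 2 or more and -0.01 without. Genes with the word have longer UTRs, with a median of 2788 bases for 1 copy and 952 bases for none. The share of lower genes that hold the word was 62.5% without the siFLuc library numbered 2, 50% with the libraries numbered 1 and 2 alone, and 37.7% among the larger set called in the fit blocked by column number.

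A group of linked genes among the higher ones was fibrinogen, the clotting protein made of 3 chains and secreted by liver and some lung epithelial tumour cells. FGB, FGA and FGG lie together on chromosome 4 (154562956 to 154612967, GRCh38), and all 3 rose. FGB stood at 131, 119 and 142 TPM with siBOP1 and at 48.6, 77.9 and 48.9 TPM with siFLuc (log2 fold change 1.18, SE 0.15, limma adjusted p = 0.000308). FGA stood at 96.3, 90.5 and 111 TPM and at 41.9, 57.8 and 41.5 TPM (log2 fold change 1.07, SE 0.20, limma adjusted p = 0.008). FGG stood at 95.6, 74.9 and 85.5 TPM and at 37.3, 52.6 and 39.7 TPM (log2 fold change 0.98, SE 0.18, limma adjusted p = 0.00792). In each chain the control numbered 2 was the highest control, and no control reached the lowest siBOP1 library. In bulk RNA, more cells that express a gene and more RNA per cell cannot be told apart. AMBP, the precursor of alpha-1-microglobulin and bikunin, also rose, from 5.23 ± 2.11 to 10.7 ± 1.17 TPM (SD, n = 3 each; log2 fold change 0.96, limma adjusted p = 0.0118).

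These 4 were the called genes among 15 tested of a list of 27 fibrinogen and acute phase genes, of which 12 fell below the filter. All 4 were higher, where 74 of all 14370 genes (0.515%) were called higher. The list's median log2 fold change was 0.46, against -0.02 over all genes. It was 0.71 without the siFLuc library numbered 2, and 0.56, 0.33 and 0.67 between the libraries numbered 1, 2 and 4. Some of the list's genes may have passed the filter through the group where they are high, and the list was written with earlier results known. Without the siFLuc library numbered 2, 5 of the 15 were called higher, where 81 of all 14370 genes were. With the libraries numbered 1 and 2 alone 3 were, where 0.404% of all genes were. FGB was called with each library left out in turn. FGA, FGG and AMBP lost their calls without the siFLuc library numbered 1 (adjusted p = 0.0805, 0.0805 and 0.0898) or without that numbered 4 (0.0591, 0.0521 and 0.0957). FGG did so too without the siBOP1 library numbered 1 (0.0559), and AMBP without that numbered 4 (0.0588).

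TM4SF20, a tetraspanin-like membrane protein, had the largest rise among genes of at least 5 TPM. It stood at 28.7, 25.6 and 33.6 TPM with siBOP1 and at 9.71, 13.3 and 11.3 TPM with siFLuc (log2 fold change 1.28, SE 0.19, limma adjusted p = 0.00156). HINT1, a purine nucleotide hydrolase, was the most abundant of the 12 largest rises, at 586, 539 and 472 TPM against 209, 342 and 157 TPM (log2 fold change 1.24, SE 0.18, limma adjusted p = 0.00156). Its controls were spread widely, and the control numbered 2 was the highest of them. Without it the HINT1 log2 fold change was 1.55.

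TTC39A, a tetratricopeptide repeat protein, rose from 2.56 ± 0.77 to 7.38 ± 1.07 TPM, and SLC22A18AS, a transcript antisense to SLC22A18, from 4.06 ± 1.14 to 11.1 ± 3.36 TPM (SD, n = 3 each). Their log2 fold changes were both 1.25 (limma adjusted p = 0.00387 and 0.00365). The kit keeps strand, but whether the counting used it is not given in the sources used here. The serine protease HTRA1 rose from 9.64 ± 4.12 to 21.2 ± 2.49 TPM (log2 fold change 1.14, limma adjusted p = 0.0373). It was called with 1 of the 6 leave-outs, that of the siFLuc library numbered 2, and its adjusted p reached 0.234 without the siFLuc library numbered 4. RRAD, a small GTPase that restrains calcium channels, rose from 4.98 ± 0.80 to 10.7 ± 1.03 TPM (log2 fold change 0.97, limma adjusted p = 0.00289). CYP4F12, a fatty acid hydroxylase, rose from 3.49 ± 0.68 to 7.82 ± 1.21 TPM and C11orf86 from 2.08 ± 0.58 to 5.15 ± 1.05 TPM (log2 fold changes 0.98 and 1.00, limma adjusted p = 0.00721 and 0.0112). Both lost the call without the siFLuc library numbered 1 (adjusted p = 0.0805 and 0.105), and C11orf86 also without the siBOP1 library numbered 4 (0.0628). BDKRB2, the bradykinin receptor, and STARD10, a lipid transfer protein, were at 11.8 against 6.47 TPM and at 19.5 against 11.6 TPM and did not pass the threshold (limma adjusted p = 0.0596 and 0.2). BDKRB2 passed without the siFLuc library numbered 2 (adjusted p = 0.0183) and in the fit blocked by column number (0.0146).

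Regulators and secreted factors were also among the higher genes. IL11, a cytokine that signals through gp130, stood at 77.3, 90.9 and 90.4 TPM with siBOP1 and at 42.2, 51.2 and 40.9 TPM with siFLuc (log2 fold change 0.93, SE 0.16, limma adjusted p = 0.00387). The groups did not overlap, and IL11 was the 1 called gene of 25 tested chemokines and cytokines, where 0.842% of all genes were called. CEBPB, a factor that activates acute phase genes, stood at 173, 168 and 173 TPM and at 100, 120 and 118 TPM (log2 fold change 0.61, SE 0.12, limma adjusted p = 0.0158). It was called with 1 of the 6 leave-outs, that of the siFLuc library numbered 2, and its adjusted p was at most 0.14, without the siFLuc library numbered 1. The related factor CEBPA rose from 3.43 ± 0.34 to 6.71 ± 0.95 TPM and FOXA3, a liver forkhead factor, from 1.97 ± 0.30 to 4.30 ± 0.41 TPM (log2 fold changes 0.79 and 0.84, limma adjusted p = 0.0069 and 0.00938). CEBPA and FOXA3 were chosen after their values were seen. FOXA3 lost its call without the siFLuc library numbered 1 (adjusted p = 0.0813) or 4 (0.0528).

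**Figure D3:**
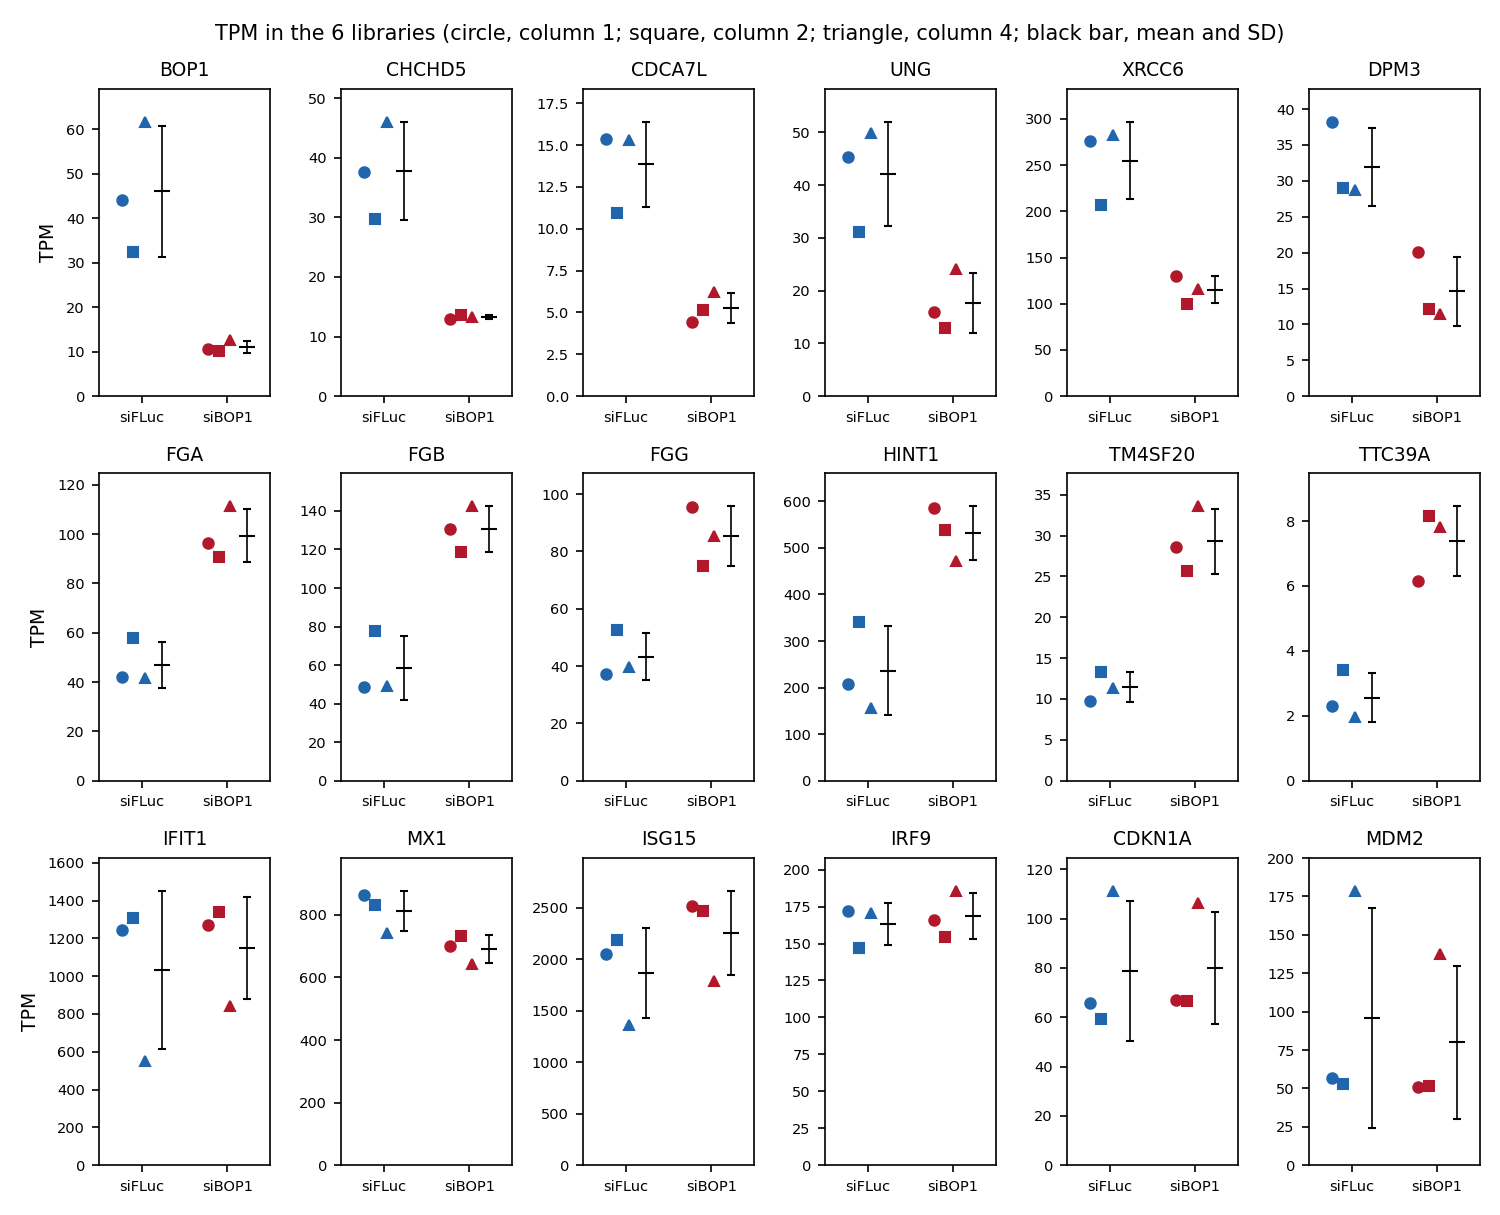
TPM of 18 genes in each of the 6 libraries; blue points are siFLuc and red points siBOP1 libraries, the shape is the column number, and the black bar gives the mean and SD of 3. The genes in the upper and middle rows separate the groups, while in the lower row IFIT1, ISG15, IRF9, CDKN1A and MDM2 overlap and MX1 does not.

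Genes of ribosome production lay mostly slightly below 0, and most did not pass the test. Of 74 tested large subunit assembly factors, 66 lay below 0 (median log2 fold change -0.12). BOP1 and DDX18 were called, both lower, where 0.327% of all genes were called lower. DDX18, a nucleolar RNA helicase, stood at 30.5, 29.5 and 40.3 TPM with siBOP1 and at 44.0, 45.1 and 52.5 TPM with siFLuc (log2 fold change -0.49, SE 0.11, limma adjusted p = 0.0398). DDX18 kept its call in only 1 of the 6 leave-outs, that of the siBOP1 library numbered 4, and its adjusted p was 0.0558 without the siFLuc library numbered 2 and 0.242 without that numbered 4. Of 65 factors of the small subunit, 55 lay below 0 (median -0.17) and none was called. Their largest differences were PDCD11, an RNA-binding protein of the small subunit processome, at 13.2 ± 4.42 against 22.1 ± 5.70 TPM, and FCF1, at 37.3 ± 7.67 against 51.6 ± 9.16 TPM (limma adjusted p = 0.123 and 0.127). Of 23 genes of RNA polymerase I, 19 lay below 0 (median -0.17) and none was called. Without the siFLuc library numbered 2 the polymerase I median was -0.28 and that of the large subunit factors -0.20. POLR1G stood at 9.59 ± 2.66 against 15.8 ± 4.35 TPM and POLR1E at 14.7 ± 3.97 against 22.0 ± 7.25 TPM (limma adjusted p = 0.11 and 0.364). Over all genes tested, 52.8% lay below 0.

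In the fit blocked by column number, 6 large subunit factors, 7 small subunit factors and 2 polymerase I genes were called lower, and 1 polymerase I gene higher, where 1.91% and 2.55% of all genes were called lower and higher. The blocked adjusted p was 0.00304 for PDCD11, 0.0044 for FCF1, 0.02 for POLR1G and 0.00442 for POLR1E. PDCD11 stood highest in the library numbered 4 of each group, at 18.2 TPM with siBOP1 and 28.1 TPM with siFLuc. Without the siFLuc library numbered 2, POLR1G passed (adjusted p = 0.0293). With the libraries numbered 1 and 2 alone, 3 small subunit factors were lower, PDCD11 (0.0327) and FCF1 (0.0487) among them, where 0.39% of all genes were.

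Ribosomal protein genes differed by small amounts. Of 47 tested for the large subunit, 42 lay below 0 with a median of -0.07, and RPLP0, which forms the base of the ribosomal stalk, was called. RPLP0 stood at 1786, 1681 and 1558 TPM with siBOP1 and at 2713, 2397 and 2503 TPM with siFLuc (log2 fold change -0.60, SE 0.09, limma adjusted p = 0.00169). Of 32 for the small subunit, 28 lay below 0 with a median of -0.08, and RPSA was called. Among 51 translation factors, 47 lay below 0 (median -0.12) and EIF4G2 was called. EIF4G2, an initiation factor that does not bind the cap-binding protein, stood at 262, 275 and 281 TPM and at 438, 391 and 386 TPM (log2 fold change -0.57, SE 0.09, limma adjusted p = 0.00169). The 3 called genes RPLP0, RPSA and EIF4G2 were called with each library left out in turn. Over all genes tested, 0.327% were called lower.

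Most interferon genes did not pass the test. Of 86 tested interferon-stimulated effectors, 36 lay above 0 and 50 below (median log2 fold change -0.02). Of the 86, 2 were called, both lower, where 0.327% of all genes were called lower and 0.515% higher. UBE2L6, the conjugating enzyme for ISG15, stood at 478, 437 and 410 TPM with siBOP1 and at 703, 612 and 626 TPM with siFLuc (log2 fold change -0.55, SE 0.11, limma adjusted p = 0.0206). The groups did not overlap. In mock cells UBE2L6 was also called lower, at -0.56 at 12 h and -0.49 at 8 h (limma adjusted p = 0.0133 and 0.0237). With IFN at 8 h the value was -0.33, not called (limma adjusted p = 0.155). EPSTI1 was low, at 1.39 ± 0.24 against 3.05 ± 0.65 TPM (log2 fold change -0.75, SE 0.17, limma adjusted p = 0.035). Leaving out the siFLuc library numbered 1 ended the calls of UBE2L6 and EPSTI1 under IFN at 12 h (adjusted p = 0.153 and 0.23). So did leaving out the siBOP1 library numbered 2 or 4 or the siFLuc library numbered 4. EPSTI1 also lost its call without the siBOP1 library numbered 1 (0.066).

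ISG15, the ubiquitin-like modifier, stood at 2514, 2465 and 1784 TPM with siBOP1 and at 2049, 2181 and 1362 TPM with siFLuc (log2 fold change 0.29, SE 0.24, limma adjusted p = 0.831). The libraries numbered 4 were the lowest of each group. IFIT1, which binds viral RNA, stood at 1268, 1338 and 841 TPM and at 1242, 1306 and 553 TPM (log2 fold change 0.22, SE 0.34, limma adjusted p = 0.935), and again the libraries numbered 4 were lowest. MX1, an antiviral GTPase, stood at 701, 732 and 644 TPM and at 865, 832 and 742 TPM (log2 fold change -0.23, SE 0.19, limma adjusted p = 0.831), without overlap between groups. IRF9 stood at 169 ± 15.7 and 163 ± 14.2 TPM (log2 fold change 0.05, limma adjusted p = 0.979).

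None of 19 tested genes of ISGF3 and JAK-STAT signalling was called (median 0.05). IFNAR1, a chain of the interferon receptor, stood at 28.0 ± 2.06 against 21.7 ± 3.47 TPM, and TYK2 at 37.1 ± 4.11 against 31.0 ± 6.04 TPM (limma adjusted p = 0.282 and 0.759). Of 22 antigen presentation genes, 20 lay above 0 (median 0.15) and none was called. PSMB10, a subunit of the immunoproteasome, stood at 229 ± 26.9 against 186 ± 41.0 TPM, and HLA-B at 775 ± 137 against 617 ± 78.6 TPM (limma adjusted p = 0.356 and 0.736).

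Of 54 tested p53 targets, 28 lay above 0 and 26 below (median log2 fold change 0.01). NINJ1 alone was called, where 0.842% of all genes were. The p53 median was -0.10 without the siFLuc library numbered 2 and 0.03 with the libraries numbered 1 and 2 alone. NINJ1, a membrane protein that ruptures the plasma membrane in lytic death, stood at 92.6, 93.4 and 104 TPM with siBOP1 and at 56.5, 68.1 and 60.8 TPM with siFLuc (log2 fold change 0.64, SE 0.09, limma adjusted p = 0.00123), and it was called with each library left out in turn. CDKN1A, the p53-induced inhibitor of cyclin-dependent kinases, stood at 67.1, 66.7 and 106 TPM and at 65.6, 59.2 and 111 TPM (log2 fold change 0.05, SE 0.22, limma adjusted p = 0.98). MDM2, the p53 ubiquitin ligase, stood at 50.7, 51.5 and 138 TPM and at 56.7, 52.9 and 179 TPM (log2 fold change -0.19, SE 0.45, limma adjusted p = 0.962). In both genes the library numbered 4 was the highest of its group with either siRNA.

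Of 58 genes of DNA replication and S phase, 50 lay below 0 (median -0.14), and of 55 genes of G2 and mitosis 49 (median -0.21). Between the libraries numbered 4 the S phase median was 0.02, and -0.20 and -0.18 for those numbered 1 and 2. Without the siFLuc library numbered 2 the medians of the S phase and mitosis lists were -0.23 and -0.31. No G2 and mitosis gene was called. The kinase PLK1 stood at 27.8 ± 4.67 against 39.4 ± 4.11 TPM and CDC20, an activator of the anaphase-promoting complex, at 35.8 ± 8.06 against 52.7 ± 14.9 TPM (limma adjusted p = 0.598 and 0.676).

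Among 38 genes of ATF4 and the integrated stress response, 30 lay below 0 (median -0.13), SLC7A5 fell and CEBPB rose. That median was -0.10 and 0.02 for the libraries numbered 1 and 2 and -0.30 for those numbered 4. It was -0.29 without the siFLuc library numbered 2 and -0.05 with the libraries numbered 1 and 2 alone. Of 26 heat shock proteins, 19 lay below 0 (median -0.15) and 1 was called, where 0.842% of all genes were. It was STIP1, the co-chaperone that joins HSP70 to HSP90, at 142 ± 16.8 against 206 ± 25.5 TPM (log2 fold change -0.53, SE 0.11, limma adjusted p = 0.0157). Of 29 ER chaperones and genes of the unfolded protein response, 23 lay above 0 (median 0.10) and none was called. STIP1 was called without the siBOP1 library numbered 4 or the siFLuc library numbered 2, and lost its call in the other 4 leave-outs, with adjusted p up to 0.124.

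In metabolism, 1 of 34 hypoxia and glycolysis genes and 1 of 38 NRF2 targets were called, where 0.842% of all genes were. CA12, a membrane carbonic anhydrase, rose from 628 ± 82.4 to 898 ± 65.5 TPM (log2 fold change 0.52, limma adjusted p = 0.0169), and EPHX1, the microsomal epoxide hydrolase, from 186 ± 25.6 to 270.3 ± 7.32 TPM (log2 fold change 0.54, limma adjusted p = 0.0172). Their highest adjusted p with 1 library left out was 0.124 and 0.13, both without the siFLuc library numbered 4. In the fit blocked by column number, 7 of the 38 NRF2 targets were higher and 1 lower, where 2.55% and 1.91% of all genes were. None of 29 cholesterol genes was called. CYP51A1, a demethylase of sterol synthesis, stood at 67.8% of the control mean (limma adjusted p = 0.0796). CYP51A1 passed without the siFLuc library numbered 2 (adjusted p = 0.0162) and in the fit blocked by column number (0.0182). The 13 mitochondrially encoded genes, 30 genes of the Argonaute pathway, 18 of NF-kB and 25 of EGFR and ERK feedback held no called gene, with medians of 0.06, -0.04, -0.01 and -0.15. Of 36 genes of dolichol phosphate mannose and N-glycosylation, 25 lay above 0 (median 0.11), and DPM3 was the 1 called.

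**Figure D4:**
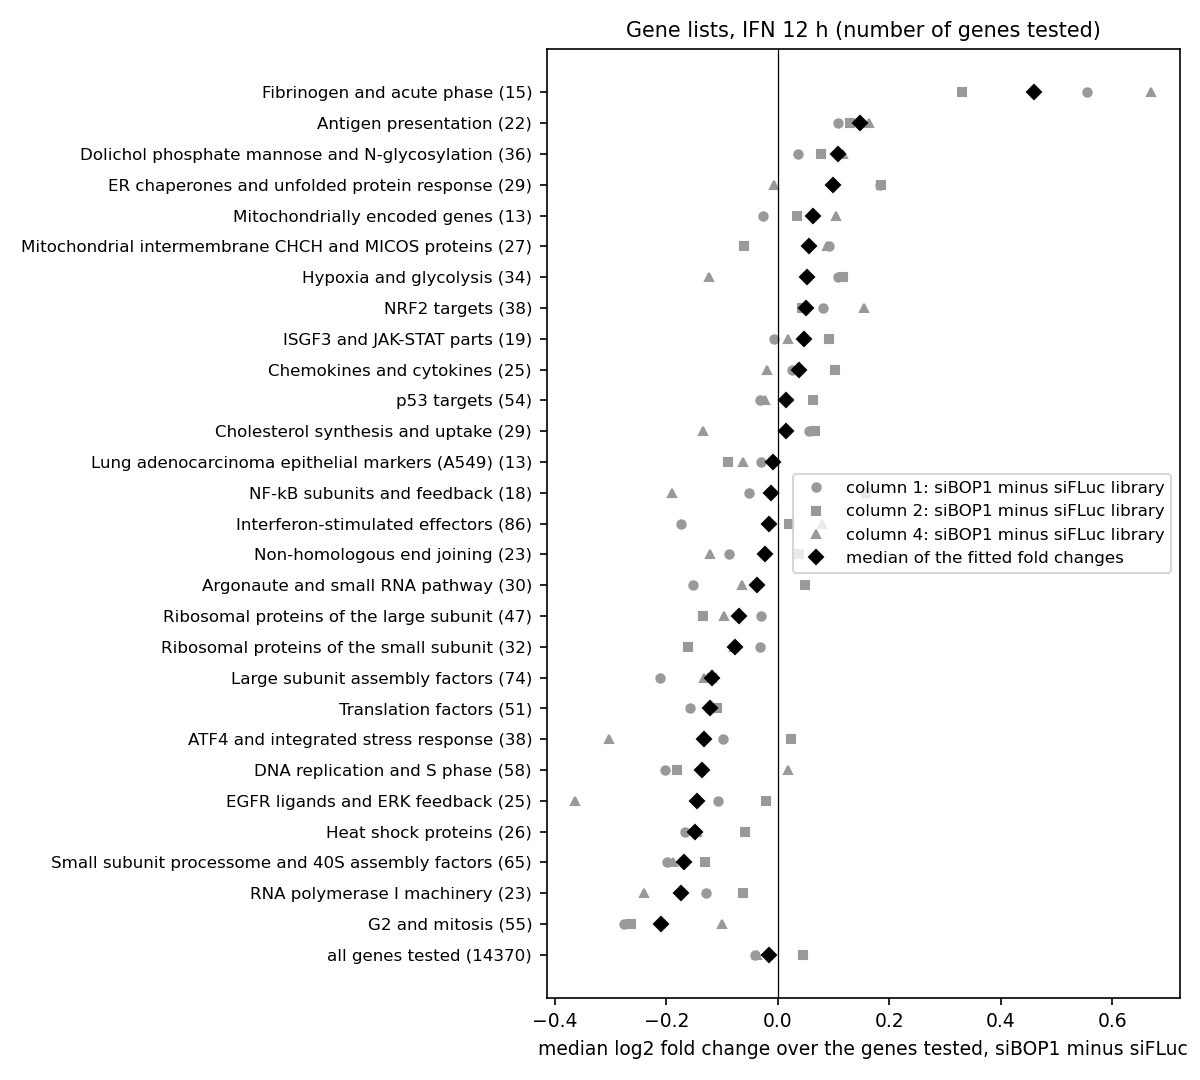
Median log2 fold change of each gene list with at least 10 genes tested (black diamonds) and the same median between the siBOP1 and siFLuc libraries of each column number (grey shapes), with the number of genes tested in brackets. The fibrinogen and acute phase list lies highest at 0.46, G2 and mitosis lowest at -0.21, and the other lists shown lie between -0.17 and 0.15.

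The medians of other lists also moved. Without the siFLuc library numbered 2 the median over all genes was -0.05. That of EGFR and ERK feedback was then -0.29, NF-kB -0.16, the Argonaute pathway -0.12, end joining -0.08 and cholesterol -0.03. Above 0 lay the mitochondrially encoded genes at 0.13, hypoxia and glycolysis at 0.11, the CHCH and MICOS proteins at 0.09, chemokines and cytokines at 0.07, the ER list at 0.05, N-glycosylation at 0.04, JAK-STAT at 0.02 and the interferon effectors at 0.01. With the libraries numbered 1 and 2 alone, EGFR and ERK feedback stood at -0.01, the interferon effectors at -0.07, the ER list at 0.18, hypoxia and glycolysis at 0.12 and cholesterol at 0.08. NF-kB, end joining and the mitochondrially encoded genes stood at 0.02 each, N-glycosylation and JAK-STAT at 0.07 each, and the Argonaute pathway at -0.07. The CHCH and MICOS proteins had a median just below 0.

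Markers of the cell line were present. Of 16 epithelial and A549 markers 13 were tested, with KRT8 at 2874 to 3803 TPM, KRT18 at 1979 to 2862 TPM and AKR1B10 at 1887 to 2759 TPM, while the lung lineage genes NKX2-1, SFTPB and SFTPC stayed below 1 TPM. KRT7 was the 1 called marker, at 1229 ± 75.2 against 1591 ± 88.7 TPM (log2 fold change -0.37, SE 0.08, limma adjusted p = 0.0172). That call was lost in 4 of the 6 leave-outs, with adjusted p up to 0.123 without the siFLuc library numbered 1. PTPRC, which defines leukocytes, reached at most 0.021 TPM, CD3E, MS4A1 and NKG7 were listed at 0 in all 6 libraries, and no endothelial marker reached 1 TPM. The summed level of 10 leukocyte markers was 299 to 407 TPM with siBOP1 and 289 to 350 TPM with siFLuc. Nearly all of it came from CD68, which epithelial cells also express. CD14 stood at 2.57 to 4.28 TPM and ITGAM at 0.43 to 2.23 TPM. The summed level of 10 fibroblast markers was 30.9 to 38.2 TPM and 25.2 to 29.3 TPM. ACTA2 stood at 13.4 to 17.3 TPM, COL1A1 at 7.44 to 18.2 TPM and THY1 at 1.64 to 3.61 TPM. COL3A1 and COL1A2 were at or near 0. The 3 tested leukocyte and 3 tested fibroblast markers all had log2 fold changes above 0, and none was called. The summed A549 markers were at 10286 to 11184 TPM and at 11487 to 12413 TPM, with 6 of the 13 tested above 0 and 7 below. All siBOP1 values of KRT8, KRT18, KRT7 and VIM lay under the controls, and those of AKR1B10, AKR1C1, CPS1 and CDH1 above them. Among all genes tested, 13.5% separated the groups without overlap. Of these markers KRT7 alone passed the test, where 0.842% of all genes did. The fibroblast and A549 sums did not overlap between the groups, and their part in the results was not tested.

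The same siRNAs were compared in 3 further sets of libraries, mock-treated at 8 h and at 12 h and with IFN at 8 h, which share no library with the comparison above but share the fit's estimate of spread. All 74 higher genes had a positive fold change in mock cells at 8 h, 73 with IFN at 8 h and 72 in mock cells at 12 h. Of the 47 lower genes, 46, 45 and 46 had a negative one. Over all genes tested, 67.3%, 71.4% and 71.5% had the same sign as under IFN at 12 h. Of the 121 genes, 96 were also called in mock cells at 8 h, 105 with IFN at 8 h and 84 in mock cells at 12 h, where 2.52%, 2.34% and 1.96% of all genes were called. They made up 26.5%, 31.2% and 29.8% of the genes called there. The other comparisons called 362, 336 and 282 genes in all, and 74 of the 121 were called in each of the 3.

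A further 10 of the 121 passed the threshold in none of the other 3 comparisons, 7 higher (C11orf86, CATSPERG, CD63, FKBP2, NKD1, PLCXD1 and POM121L9P) and 3 lower (BCL9, EPSTI1 and TLR4). The tests of the difference itself, given next, called none of them, and these genes were named for this count after their values were seen. For BCL9 the log2 fold change was -0.87 here, -0.31 in mock cells at 12 h and -0.36 with IFN at 8 h. For EPSTI1 the values were -0.75, 0.17 and 0.42, so with IFN its sign differed between 8 h and 12 h. NKD1, an inhibitor of Wnt signalling, had 1.30 here and 0.33 in mock cells at 12 h.

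Whether IFN changed the siRNA effect at 12 h was tested as an interaction of siRNA and treatment over the 4 groups at 12 h, and whether time changed it as an interaction of siRNA and time over the 4 groups with IFN. No gene was called in either (limma), and unadjusted p-values under 0.05 numbered 203 and 223 of 14370 genes. In the fit blocked by column number they numbered 597 and 600, and it again called none. Each of these counts is below the share of 0.05 that tests without any effect would give on average. With limma weights for each library, such p-values numbered 1137 and 800. With the labelled replicate number as a block, libraries numbered 4 left out, they numbered 812 and 951. The counts of these further fits lie above that share, and no gene was called in them either. For BOP1 the log2 difference in effect between IFN and mock at 12 h was 0.08 (SE 0.25), which gives the precision for that gene at n = 3. Precision differed between genes, with an SE of 0.11 for KRT7, 0.48 for IFIT1 and 0.63 for MDM2.

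**Figure D5:**
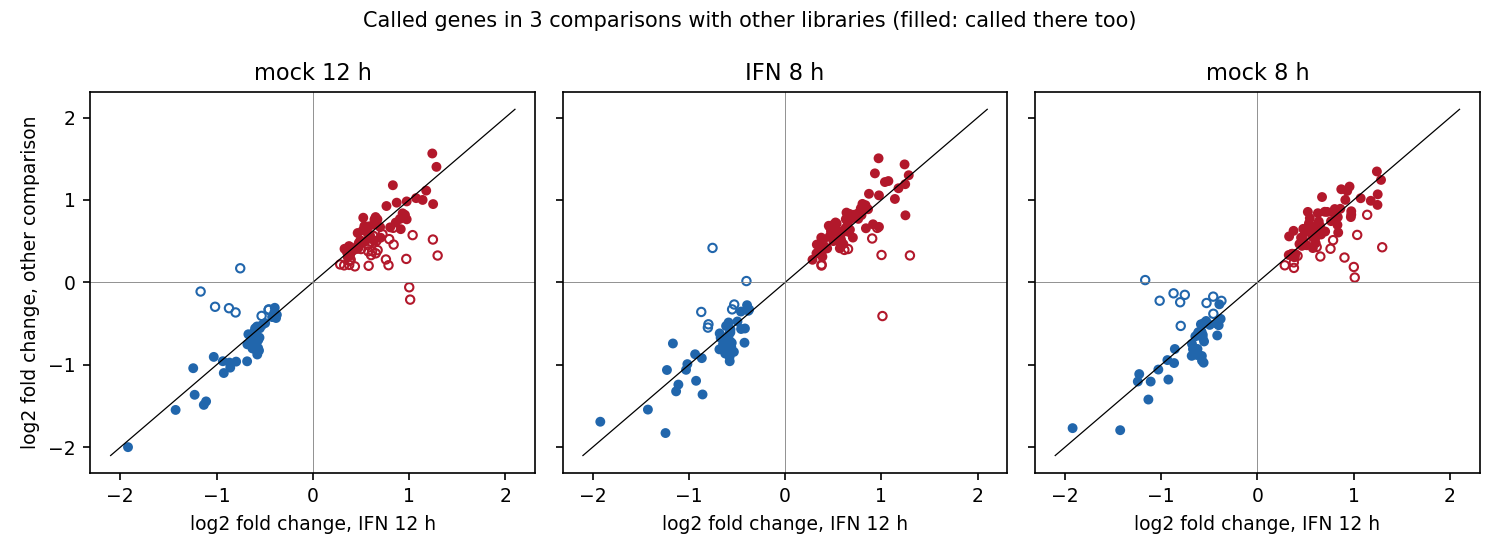
Log2 fold change of the 121 called genes under IFN at 12 h (horizontal) against each of the 3 other siRNA comparisons (vertical); red genes were higher and blue genes lower at IFN 12 h, filled points were also called in the other comparison, and the diagonal marks equal change. Most points lie near the diagonal. Open points nearer 0 on the vertical axis include BCL9, EPSTI1 and C11orf86. EPSTI1 lies above 0 in the panels for mock at 12 h and IFN at 8 h.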

How the data were processed

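Libraries came from poly(A) RNA by a kit that keeps strand, per the labels' protocols. The authors deposited TPM values for 60609 genes in 24 columns, each of which sums to 1000000. The aligner, quantification tool, genome build and annotation are not given in the sources used here. Symbols came from a table of Ensembl IDs (60340 rows matched) and positions from GENCODE 29 on GRCh38 (14319 of the tested genes).

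Genes that reached 1 TPM in 3 or more of the 6 libraries were tested with limma 3.58.1 (R 4.3.3) on log2(TPM + 1), with an intensity trend and 1 mean for each of the 8 groups over all 24 libraries. This scale understates the change of low genes. P-values were Benjamini-Hochberg adjusted over 14370 genes, with a threshold of 0.05. The method was tested on simulated data in which libraries varied independently. That simulation held no column number effect, so it cannot show how the fit behaves with one.

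Same-numbered columns deviated together (correlation across genes 0.313, 0.283 and 0.544 for numbers 1, 2 and 4). Number 4 is not a labelled replicate number, and the labelled replicates alone gave 0.094, so the fit has no block and blocked counts are given beside it.

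Genes named were BOP1, PES1 and WDR12, the 12 largest rises and falls with no overlap and at least 5 TPM, the called members of the gene lists (at most 4 of each list, or the 2 largest differences where none was called) and a fixed set. The members and lists were chosen with earlier results of these data known. The 3′ UTR of 1 transcript per gene was searched for words.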

Additional observations from a re-analysis of the deposited data

How the results depend on the processing

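The counts of 74 higher and 47 lower genes moved with the estimate of spread. With limma weights for each library 490 and 343 genes were called, with the column number as a replicate block 366 and 274, and with the labelled replicate number as a block, libraries numbered 4 left out, 154 and 134. With only the 12 libraries taken at 12 h in the fit the counts were 18 and 16, and with only the 6 libraries compared 1 and 2. BOP1 then had an unchanged log2 fold change of -1.92 with an adjusted p of 0.0588, and it passed under all other settings. With 1 library left out in turn, 15 to 81 genes were higher and 16 to 61 lower. The share of higher genes among the called was 61.2%, 52.4% after median-of-ratios rescaling, 52.1% after quantile normalization and 50.9% with the libraries numbered 1 and 2 alone. It ranged from 44.6% (without siBOP1 number 4) to 57.0% with 1 library left out, with 48.4% without siFLuc number 1, and was 33.3% of 3 genes in the fit of only 6 libraries.

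The column number block and the library weights each called all 121 genes again, and the fit of only 6 libraries 1 of them. Alternatives for the word and for the other comparisons were added after the data were seen. The share of lower genes with the word was 35.6% with library weights, 37.7% with the column number block, 39.8% with the labelled replicate block and 50% with the libraries numbered 1 and 2 alone. It was 0% of the 1 gene with a 3′ UTR in the fit of only 6 libraries, and 56.8% to 65.2% with 1 library left out. Of the called genes, 95.9% had the same sign in all 3 other comparisons, 99.1% with a filter at a mean of 5 TPM and 87.4% with library weights. Uncalled genes changed sign: IRF9 to -0.033 with library weights, and with 1 library left out WDR12 ranged from -0.19 to 0.090, IFIT1 from -0.18 to 0.44, IRF9 from -0.027 to 0.11, CDKN1A from -0.17 to 0.32 and MDM2 from -0.66 to 0.37. The causes were not tested. The interactions called no gene under any setting that could be run. The interaction with IFN has no value from the 6 libraries alone, nor that with time from the 12 h libraries or those 6. TPM gives no depth, so no counting error is known.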
